A study of Caenorhabditis elegans with 6 samples.

Results

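The genes described here had high log ratios in cells that carried 128Q, an expanded polyglutamine stretch. They lay near 0 on replicates 1 and 2 of the arrays that set normal-length 19Q against GFP only. A gene was selected on its log ratios: at least 1.2 on all 3 arrays of 128Q over 19Q, and between -0.5 and 0.5 in both of the first replicates (1 and 2) of 19Q over GFP only. Members of several neuropeptide-related and other symbol families, with some single genes, had been set aside by name. The rule left 56 of 7477 named genes. Of the 7329 named genes with values on the 5 arrays that the rule read, 186 reached 1.2 on all 3 arrays of 128Q over 19Q. Among those 186, 61 (32.8%) also lay within the band, beside 3279 (44.7%) of the 7329. Of the 61, 5 were left out by name. Another 32 of the 186 lay above the band on both of its arrays, 12 lay below it on both, and 81 were mixed.

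The RNA came from touch receptor cells of Caenorhabditis elegans. The nematodes carried transgenes driven by the mec-3 promoter, which is active in the touch receptor neurons and, as is known from other work, in a few other sensory neurons. The first strain expressed the N-terminal portion of human huntingtin with 128Q (mutant) fused to GFP, the second strain expressed the same portion with 19Q (normal) fused to GFP, and the third strain expressed GFP only. Embryos were dissociated, the cells were cultured overnight, and fluorescent cells were collected by flow cytometry. Every group was therefore sorted on GFP, and the cells were embryonic cells in culture rather than neurons of an adult animal. Each comparison had 3 arrays with 2 colours, which the labels call biological replicates. Whether they came from separate cultures is not stated beyond that name and the mention of independent experiments, so any spread given here is the spread between these arrays. The cell type was not checked here, because 0 of 32 marker genes in 9 lists, those of touch receptor neurons included, have a named probe in the annotation used. Whether the level of those markers differed between the groups was therefore not analysed here.

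Huntington's disease is caused by an expanded polyglutamine stretch near the N-terminal end of huntingtin. Such a stretch misfolds and aggregates, and it disturbs transcription, mitochondria, transport along the axon and protein turnover. Neurons that carry it can lose function before they die, and in the nematode the touch receptor neurons report that loss through the response to light touch. Most of the selected genes carry no functional name in the annotation used, as is so for most named genes. Of the 56, 50 have only the name of the clone in which they lie as their symbol. The other 6 (10.7%) have a class symbol, beside 1127 (15.1%) of the 7477 named genes. The gene table of the WBcel235 assembly lists 55 as protein coding and 1, C14C6.12, as a pseudogene.

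All values below are log ratios in deposited units. The sources used here do not give the base of the logarithm, so no value is stated as a fold. Values above 0 mean more RNA in 128Q than in 19Q cells, or in 19Q than in GFP-only cells. Every member was measured by 1 probe and had a value on all 6 arrays. Since the cells were measured in bulk, a change in RNA per cell and a change in the mix of sorted cells cannot be told apart.

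In 128Q cells over 19Q cells the members lay between 1.23 and 4.35 on replicate 1, between 1.22 and 4.13 on replicate 2, and between 1.23 and 3.35 on replicate 3. Their medians on the 3 arrays were 2.65, 2.37 and 2.23, against 0.11, 0.00 and 0.04 for all named genes. The lower edge of these ranges was set by the limit of 1.2. Averaged over the arrays, members ranged from 1.49 to 3.66 with a median of 2.31, and the SD over the 3 arrays ranged from 0.036 to 0.967 with a median of 0.426 (n = 3 arrays per gene). On their lowest array, 40 members were at 1.5 or more, 27 at 2 or more and 2 at 3 or more.

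**Figure D1:**
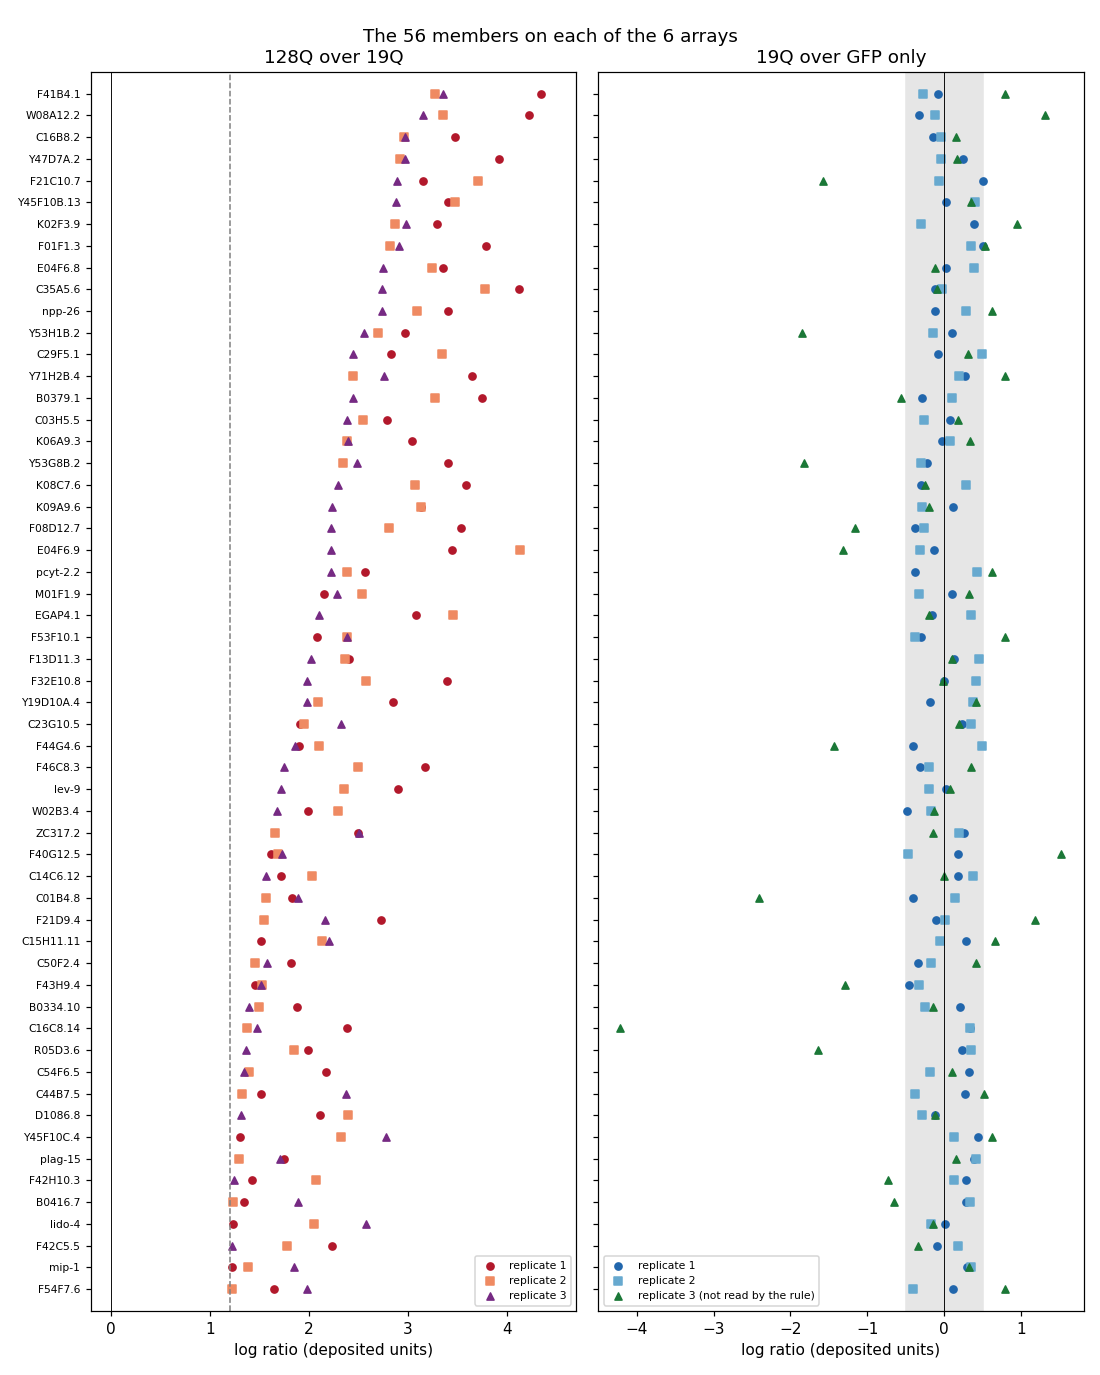
Log ratio in deposited units of each of the 56 members on the 3 arrays of 128Q over 19Q (left, dashed line at 1.2) and of 19Q over GFP only (right, shaded from -0.5 to 0.5), 1 row per gene, ordered by the lowest value on the left and with 1 symbol per replicate. The points on the left run from 1.22 to 4.35, and on the right only replicate 3, which the rule did not read, leaves the shaded band, down to -4.21 and up to 1.52.

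Replicate 1 was the highest of the 3 arrays for 31 members, replicate 2 for 13 and replicate 3 for 12. Replicate 3 was the lowest for 30. The order moved with the level of the gene. Among the 27 members at 2 or more on their lowest array, replicate 1 was highest for 19 and replicate 3 for 1, whereas among the other 29 replicate 1 was highest for 12 and replicate 3 for 11. Over all named genes the SD of the log ratios was 0.790, 0.762 and 0.813 on replicates 1 to 3. Over all probes it was 1.00, 0.783 and 0.810, with replicate 1 the widest. On each array of 19Q over GFP only it was 1.00 as well. The arrays may therefore not share a scale, so that the limits of the rule may not mean the same on each. Whether the deposited values had been scaled was not tested, nor was the part of this spread in the order of the members' arrays.

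Of the 56 members, F41B4.1 had the highest floor, with 4.35, 3.27 and 3.35 in 128Q over 19Q and -0.08, -0.28 and, on the array that the rule did not read, 0.79 in 19Q over GFP only. W08A12.2 came next, with 4.22, 3.36 and 3.15 in 128Q over 19Q and -0.33, -0.12 and 1.31 in 19Q over GFP only. These are the only members above 3 on every array of 128Q over 19Q, and in both of them replicate 1 stood about 1 unit above the other arrays. C16B8.2 measured 3.48, 2.97 and 2.97, a spread of 0.51 between its highest and lowest array. Y47D7A.2 measured 3.92, 2.92 and 2.97, and F01F1.3 measured 3.78, 2.82 and 2.91. In these 3 genes too, replicate 1 was highest and the other arrays lay close together.

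The other genes of the leading 8 did not follow that order so clearly. F21C10.7 was highest on replicate 2, with 3.15, 3.71 and 2.89 on replicates 1 to 3. Y45F10B.13 was nearly level on the first 2 arrays, with 3.40, 3.48 and 2.88. K02F3.9 had a narrow spread, with 3.30, 2.87 and 2.98. None of the 8 genes has a class symbol, and no role is given for them in the gene table used here.

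Array-to-array spread differed widely between members. F43H9.4 was the tightest, with 1.46, 1.52 and 1.52 in 128Q over 19Q, and F40G12.5 followed with 1.62, 1.69 and 1.73. F44G4.6 had a mean of 1.95 ± 0.13 (SD, n = 3). F53F10.1 gave 2.08, 2.39 and 2.39. The narrowest ranges therefore fell on genes of modest level, all at 2.39 or less on their highest array. F43H9.4 appears among the putative targets of daf-16, the nematode FOXO factor, that the study collected.

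E04F6.9 had the widest range, with 3.45, 4.13 and 2.23 on the 3 arrays, and its SD of 0.967 was the largest of the members. Y45F10C.4 was low on replicate 1 and high on replicate 3, with 1.31, 2.32 and 2.78. F46C8.3 ran the other way, with 3.17, 2.50 and 1.74, as did F32E10.8, with 3.39, 2.58 and 1.98. For these 4 genes the mean over 3 arrays (3.27 ± 0.97, 2.14 ± 0.75, 2.47 ± 0.71 and 2.65 ± 0.71, SD, n = 3) rests on arrays that differ by 1.41 or more.

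**Figure D2:**
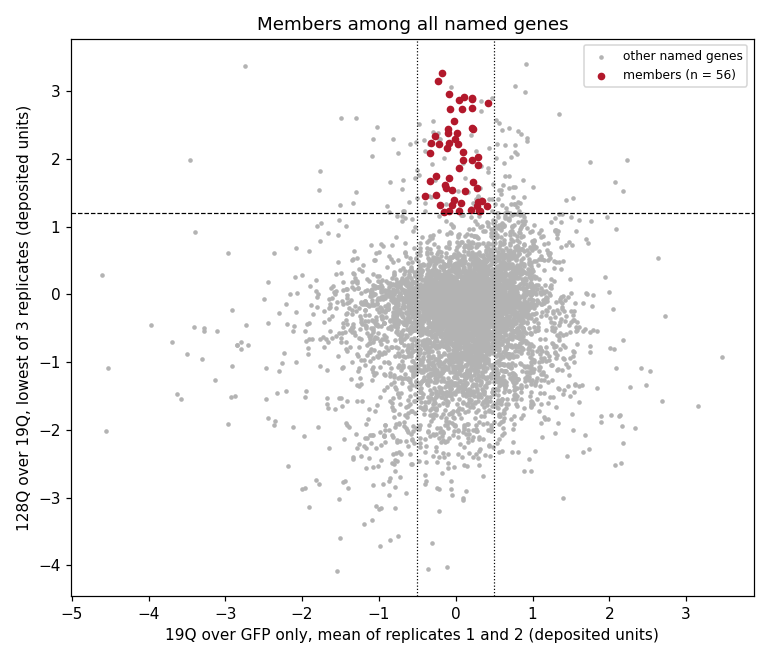
Lowest of the 3 log ratios of 128Q over 19Q (vertical axis, deposited units) against the mean of replicates 1 and 2 of 19Q over GFP only (horizontal axis, deposited units) for the 56 members and the other named genes, with the limit of 1.2 dashed and the band of -0.5 to 0.5 dotted. The members fill the upper middle window from 1.22 to 3.27, and the other named genes inside that window lay outside the band on at least 1 array or were left out by name.

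The 6 members with a class symbol touch different cell functions. npp-26 belongs to the class of nuclear pore complex proteins, the channels between nucleus and cytoplasm. It measured 3.40, 3.09 and 2.74 in 128Q over 19Q (3.08 ± 0.33, SD, n = 3) and, on the first pair of arrays of 19Q over GFP only, -0.12 and 0.28. The other named genes of the class were near 0 on the same arrays: npp-25 measured 0.09, -0.01 and 0.24, and npp-27 measured 0.30, 0.27 and 0.03. On all 3 arrays npp-26 was thus more than 2 units above both, although no test of that difference was made because npp-26 had been chosen for its height.

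pcyt-2.2 carries the name of an enzyme that activates phosphoethanolamine, a step of phosphatidylethanolamine synthesis, and measured 2.57, 2.39 and 2.22 (2.39 ± 0.17). Its paralog pcyt-2.1 measured 0.32, 0.00 and -0.12 in 128Q over 19Q. The paralogs did not overlap on these arrays, but pcyt-2.2 had been chosen for its height there and no test was made. Only 2.51% of named genes reached 1.2 on all 3 arrays. Paralogs can share probe sequence, and the probe sequences were not used here.

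lev-9 encodes a secreted protein with sushi domains that is needed to cluster acetylcholine receptors at the neuromuscular junction, and the study pairs it with the human CUB and Sushi protein CSMD3. It measured 2.90, 2.36 and 1.71 in 128Q over 19Q (2.32 ± 0.59, SD, n = 3) and 0.03, -0.20 and 0.08 on the arrays of 19Q over GFP only. plag-15, which the study pairs with a human lysosomal phospholipase A2, was lower in the first comparison at 1.75, 1.30 and 1.71. In 19Q over GFP only plag-15 measured 0.39, 0.42 and 0.16, on the positive side of 0 each time. lev-9 and plag-15 are the only named genes of their classes.

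mip-1 encodes a germ granule protein with LOTUS domains, known as a scaffold of the granules of the germ line, and was among the members closest to the limit, with 1.23, 1.39 and 1.85. Its partner mip-2 lay above the limit as well, at 2.19, 1.53 and 1.44 in 128Q over 19Q (limma adjusted p = 0.015, above the threshold of 0.01 used here). It was not selected because replicate 2 of 19Q over GFP only stood at -0.84. Both genes of the class were thus above 1.2 on all 3 arrays, and the band alone separated them.

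lido-4 gave 1.23, 2.05 and 2.57 in 128Q over 19Q, a range of 1.34. The 15 other named lido genes had means between -0.45 and 0.68 with a median of 0.02, and their highest single array value was 1.09, in lido-9. Of these 15, 9 had a mean above 0, and limma called 0 higher and 0 lower at an adjusted p under 0.01. Across the 4 classes with more than 1 named gene, 19 genes that are not members were measured, and none was called in either direction, beside 2.8% of all features, so a count of 0 in so few genes says nothing about the classes. In those 19, mip-2 apart, no mean exceeded 0.68.

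**Figure D3:**
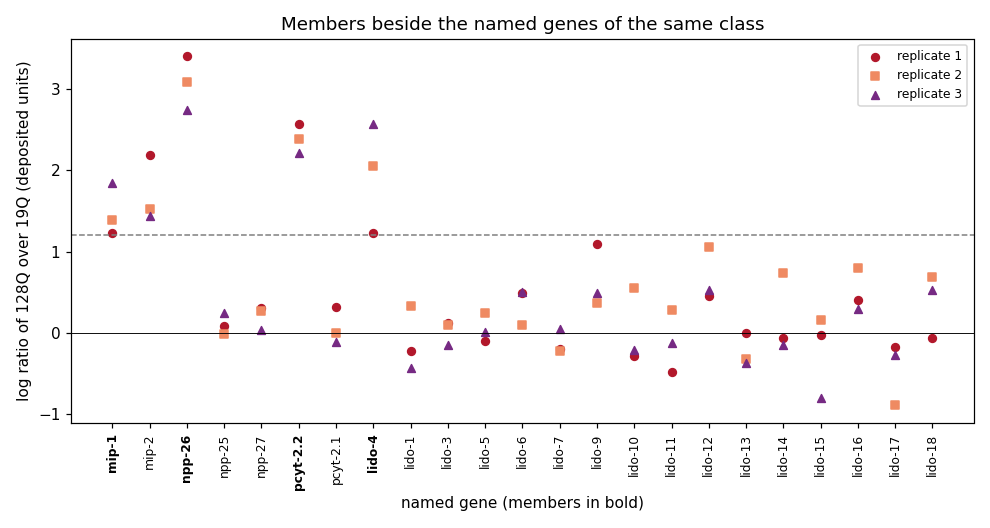
Log ratio of 128Q over 19Q (deposited units) on each of 3 arrays for 4 members (bold names) and every other named gene of their symbol classes, with the limit of 1.2 dashed. npp-26, pcyt-2.2 and lido-4 stand above the other genes of their classes, whose highest single value is 1.09, whereas mip-1 overlaps mip-2, at 1.44 to 2.19. The members had been chosen for their height on these arrays.

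Human counterparts given by the study allowed a few clone-named members to be described, and these were picked after their values were seen. K09A9.6, paired with aspartate beta-hydroxylase (an enzyme that hydroxylates residues in growth factor-like domains), measured 3.13, 3.13 and 2.24 in 128Q over 19Q. W02B3.4, paired with fukutin, which helps to build the sugar chain of dystroglycan, measured 2.00, 2.30 and 1.68. Y53G8B.2, paired with a monoacylglycerol acyltransferase of fat synthesis, measured 3.40, 2.34 and 2.49. R05D3.6, which the study lists with mitochondrial and respiratory genes, measured 1.99, 1.85 and 1.36 in 128Q over 19Q. On replicate 3 of 19Q over GFP only Y53G8B.2 stood at -1.82 and R05D3.6 at -1.64, whereas K09A9.6 stood at -0.20 and W02B3.4 at -0.13. R05D3.6 was not called in 128Q versus 19Q. K09A9.6 and W02B3.4 overlap the genes gas-1 and grk-2, so their values may not belong to the counterparts named here.

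Gene order in the WBcel235 annotation placed 1 pair of members side by side. E04F6.8 measured 3.36, 3.24 and 2.75 in 128Q over 19Q, against 3.45, 4.13 and 2.23 for its neighbour E04F6.9. Both were high on every array, and they differed most on replicate 2. No other members lay within 10 genes of each other.

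Around 46 of the members, 76 other named genes lay within 2 genes on either side. Of these, 6 (7.89%) were at 1.2 or more on all 3 arrays of 128Q over 19Q, beside 187 (2.51%) of the 7441 named genes with values on those arrays. The 187 include the members, which were left out of the 76, so the shares are not of like sets. Because the neighbours share the arrays on which members were chosen, the shares are given without a test. Their median mean was 0.12, beside 0.06 for all named genes.

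The highest of the 6 was D1086.2, with 3.35, 3.08 and 3.14, which overlaps the member D1086.8 (2.11, 2.39 and 1.31). C01B4.7 measured 2.39, 2.63 and 1.72 next to C01B4.8 at 1.83, 1.56 and 1.89, and F52G2.3 measured 1.96, 1.90 and 2.03 next to Y45F10B.13. ugt-66, of the class of UDP-glucuronosyltransferases, which attach sugars to foreign and spent compounds, measured 1.51, 2.68 and 1.78 next to C23G10.5 (1.91, 1.95 and 2.32). The remaining neighbours were F42C5.4, with 1.57, 1.61 and 1.91 next to F42C5.5, and nssp-85, which lies next to EGAP4.1 and met both limits. Since members were not counted as neighbours, each of the 6 had to lie outside the band or be left out by name. nssp-85 was left out by name, and the others left the band of 19Q over GFP only on replicate 1 or 2. In C01B4.7, for instance, replicate 1 of that comparison stood at -0.96.

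**Figure D4:**
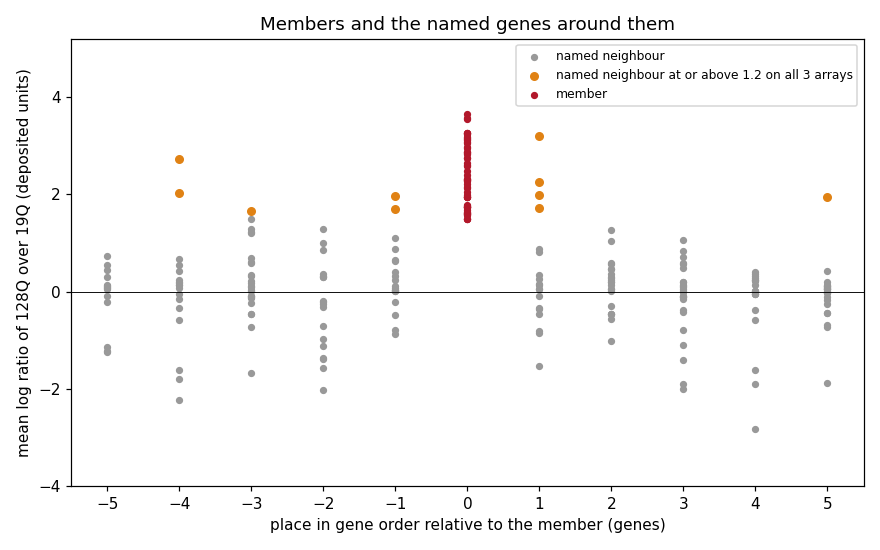
Mean log ratio of 128Q over 19Q (deposited units, 3 arrays) of the members at place 0 and of the named genes up to 5 places before and after them in the gene order of WBcel235. Most neighbours lie around 0, and 6 of the 76 within 2 places were at 1.2 or more on all 3 arrays (orange, which also marks such genes farther away).

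For 14 of the 56 members the annotation holds another gene at an overlapping position, so that a probe could lie in both. The share over all named genes was not counted here, so no excess is read from this number. The sources used here do not say whether the probes report strand, and the level of a member and of its overlapping partner cannot be told apart for those genes. The partners include several well-studied genes. C16B8.2 overlaps lin-18, the Wnt receptor Ryk, K09A9.6 overlaps gas-1, a subunit of respiratory complex I, and B0334.10 overlaps age-1, the phosphoinositide kinase upstream of daf-16. W02B3.4 overlaps grk-2, a kinase of G protein-coupled receptors, and F01F1.3 overlaps aldo-2, an aldolase of glycolysis. These partners have no named probe in the annotation used, in which 14844 of 22562 probes have no symbol. Whether probes without a symbol measure them was not tested. The paper reports lin-18 as up-regulated in neurons with expanded polyglutamine, from its microarray analysis and by qRT-PCR. Whether the values of C16B8.2 belong to lin-18 was not tested.

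Of the 14 partners, 4 have a named probe of their own, and they behaved differently. D1086.2 was above its member on every array. gldi-6 followed its member closely, with 2.11, 1.13 and 1.22 beside 2.38, 1.37 and 1.47 for C16C8.14. W08A12.3 measured 0.07, 0.46 and -0.51, far from the 4.22, 3.36 and 3.15 of W08A12.2. C50F2.2 measured 0.56, 0.82 and 0.46, below C50F2.4 at 1.82, 1.46 and 1.58.

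Replicate 3 of 19Q over GFP only was the single array that the rule did not read, and therefore the only one on which it had not limited the members' values. With 1 array there is no test. The members had a median of 0.10 there and ranged from -4.21 to 1.52. Of the 56, 29 (51.8%) lay within -0.5 to 0.5, 14 above and 13 below. Over all named genes 47.6% lay within the band on this array, and of those named genes within the band on replicates 1 and 2, 49.7% did. The members' share was thus close to that of any named gene. Over all probes, replicate 3 correlated with replicates 1 and 2 of its comparison at r = 0.114 and 0.012, whereas replicates 1 and 2 correlated at 0.739 (across 22189 or more probes, which are not independent replicates). Without 245 evenly spaced probes far below 0, none of them a member, these values were 0.210, 0.045 and 0.525.

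Far from 0 on that array, 10 members (17.9%) lay below -1 and 3 (5.36%) above 1, beside 13.6% and 10.8% of all named genes. C16C8.14 stood at -4.21 in replicate 3 of 19Q over GFP only after 0.34 and 0.34 on the first 2 arrays, the widest disagreement of any member. C01B4.8 stood at -2.41 and Y53H1B.2 at -1.85. On the other side F40G12.5 stood at 1.52, W08A12.2 at 1.31 and F21D9.4 at 1.18.

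Genes at 1.2 or more on all 3 arrays of 128Q over 19Q but outside the band were set beside the members on the same array. The 32 that lay above the band on replicates 1 and 2 had a median of 0.35 on replicate 3, with 11 within -0.5 to 0.5, and the 12 that lay below it had a median of 0.07, with 4 within. On replicate 3, 13 of the 32 were again above the band and 8 below it, and of the 12, 3 were again below it and 5 above, beside 27.5% above and 24.9% below over all named genes. The members' interquartile interval, -0.27 to 0.44, lay inside that of all named genes, -0.50 to 0.56.

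**Figure D5:**
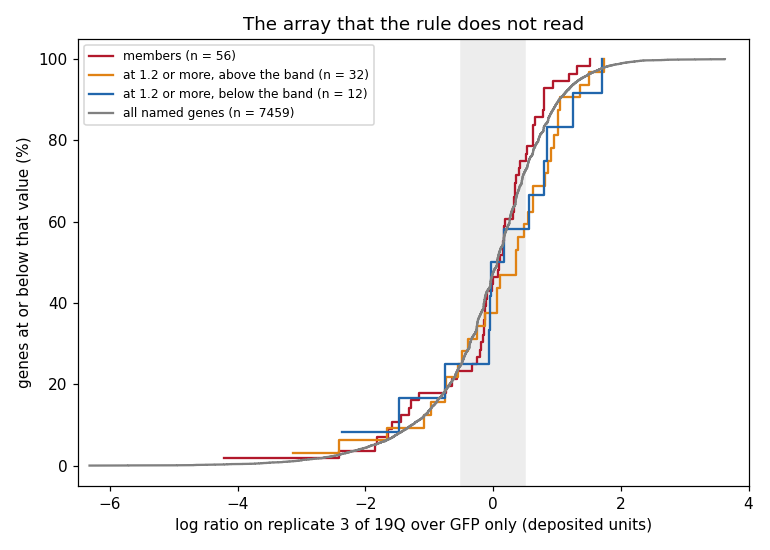
Cumulative percent of genes (vertical axis) at or below a given log ratio (horizontal axis, deposited units) on replicate 3 of 19Q over GFP only, for the members, for genes at 1.2 or more in 128Q over 19Q that lay above or below the band on replicates 1 and 2, and for all named genes, with the band shaded. The curves cross 50% at medians of 0.10, 0.35, 0.07 and 0.06, close together, and 51.8% of the members end inside the band.

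A narrower selection held 29 members, those within the band on all 3 arrays of 19Q over GFP only. Of the class-named genes, lev-9, lido-4, mip-1 and plag-15 were among them, whereas npp-26 and pcyt-2.2, both at 0.62 or 0.63 on replicate 3, were not. mip-1 was the steadiest of all members in that comparison, with 0.30, 0.35 and 0.32. C35A5.6 was also steady, with -0.12, -0.03 and -0.09, beside 4.12, 3.78 and 2.74 in 128Q over 19Q. That gene overlaps dmsr-8, named as a receptor gene of the myosuppressin type.

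Only 9 members met the rule under each of 5 narrower or rescaled versions of it (arrays centred, arrays centred and scaled, a limit of 1.5, a band of 0.3, and the band on all 3 arrays). They were C03H5.5, C16B8.2, C35A5.6, K06A9.3, K08C7.6, K09A9.6, Y47D7A.2, ZC317.2 and lev-9, named after the values were seen. In 128Q over 19Q, C03H5.5 measured 2.79, 2.55 and 2.39, and K06A9.3 measured 3.04, 2.38 and 2.39. K08C7.6 measured 3.59, 3.07 and 2.29, and ZC317.2 measured 2.50, 1.65 and 2.51. lev-9 is the only one of the 9 with a class symbol.

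The limits drew a line through genes that differ little. Just inside 1.2 lay F54F7.6, mip-1 and F42C5.5, whose lowest values were 1.22, 1.23 and 1.23, and just outside lay Y7A5A.5, R74.2 and E01G4.5, at 1.17, 1.17 and 1.15. At the edge of the band, F01F1.3, F21C10.7 and F44G4.6 reached 0.50, 0.50 and 0.49 in size, and F35D2.1, Y43F8B.10 and F22E12.1 missed it at 0.51, 0.53 and 0.53. These gaps are smaller than the median SD of a member over its arrays, 0.426 in 128Q over 19Q and 0.328 in 19Q over GFP only. The 5 genes left out by name were B0513.4 (mean 2.45 in 128Q over 19Q), E01G4.3 (2.94), F36F2.2 (1.90), npr-39 (2.08) and nssp-85 (1.72), all within the range of the members. Beyond the named genes, 342 probes with no name in the annotation reached 1.2 on all 3 arrays of 128Q over 19Q. Of these, 107 (31.3%) also lay within the band, beside 32.8% of the named genes that reached 1.2.

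The fit across all features (named genes and unnamed probes) is given only for orientation, because the members were selected on the same arrays. limma called 1.63% of 22033 features higher in 128Q than in 19Q cells at an adjusted p under 0.01. These included 133 of 7441 named genes, and 45 of the 56 members were among them. The 11 members not called had means from 1.49 to 2.15 and included F43H9.4 and F40G12.5, the tightest pair in 128Q over 19Q. All 11 were called when replicate 3 of 19Q over GFP only was left out of the shared fit (56 members called). That fit also called 3.36% of all features higher, beside 1.63% with all arrays. Leaving out any 1 array of 128Q over 19Q left 0 members called, as it did for all features (0%). In each of those limma fits 55 members were at an unadjusted p under 0.05. So were 3736 of 22095, 4444 of 22075 and 3561 of 22063 features without replicates 1, 2 and 3. The members had been chosen for their height on these arrays, so nothing is read from that count. For 19Q versus GFP only limma called 0 of 21897 features (0%), with 4825 at an unadjusted p under 0.05, and 0 members, with 1 member at an unadjusted p under 0.05.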

How the data were processed

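The series table of 2-colour Agilent arrays holds 6 arrays, 3 for each comparison (128Q over 19Q, and 19Q over GFP only). The authors amplified the RNA linearly, labelled it with Cy5 (cells named first) and Cy3, and scanned the arrays. The deposited values were treated as a score, that is, as log ratios with a base, background correction, normalization and merging of dye swaps that the sources used here do not give. They were used as deposited, and whether all arrays are on the same scale is not known. In the plan they had been taken for ordinary log ratios.

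Of 22562 probes, 7718 have 1 symbol and 14844 none in the platform annotation, and 7691 named probes matched the WBcel235 gene table. Probes of a gene were averaged. All 22321 features were fitted with limma 3.58.1 (R 4.3.3, statmod 1.5.0) with 1 coefficient per comparison, Benjamini-Hochberg adjustment over all features with 3 values, and a threshold of 0.01. The study's methods name VarMixt, which was not used here. In simulated data for 128Q versus 19Q the fit recovered 0, 89 and 171 of 200 changed features (of 21642) for changes of 1, 2 and 4 units, with 0, 1 and 1 false calls.

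The members, gene lists and limits were chosen with earlier results of these data known. Since the rule read 5 of the 6 arrays, members are described without tests. Named genes are the 8 members with the highest lowest value, the 4 narrowest and 4 widest ranges, members with a class symbol and their class, members within 10 genes of another, genes nearest the limits, the 3 highest and 3 lowest on replicate 3 of 19Q over GFP only, and those left out by name. Others, such as overlapping or neighbouring genes, were picked after their values were seen. Lists by gene description, protein features and promoter words were not run, since the tables used here hold no descriptions or sequences. Alternatives were other limits and bands, centring, scaling, single probes, a separate fit per comparison, robust moderation, a replicate block, leaving out 245 evenly spaced probes far below 0, genes with 2 of 3 values, a threshold of 0.05, and leaving out each array. Intensities were not analysed here, so the depth behind a ratio is unknown, and 3 arrays per comparison limit the precision.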

Additional observations from a re-analysis of the deposited data

How the results depend on the processing

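The number of genes that met the rule was 56 as defined, 21 with a band of 0.3, 88 with a band of 0.7, and 29 with the band on all 3 arrays of 19Q over GFP only. Dropping 1 array from the rule gave 62 to 101 genes, the 101 when replicate 2 of 19Q over GFP only was dropped. A limit of 1 or 1.5 gave 65 or 40. Centring each array gave 57 genes, of which 46 were among the 56, and centring with scaling gave 68, of which 47 were among the 56. The 10 members that failed under 1 or both scalings included lido-4, mip-1 and W02B3.4. The median of the genes on replicate 3 of 19Q over GFP only lay between -0.09 and 0.162 over these limits, bands and scalings, against 0.098.

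The count of members called in 128Q versus 19Q, 45, ranged from 33 to 54 under the other settings set out in the plan, apart from leaving out an array. Over those settings 1.18% to 4.92% of all features were called higher. Without 1 array it ranged from 0 to 56: 0 without any replicate of 128Q over 19Q, 25, 31 and 56 without replicates 1, 2 and 3 of 19Q over GFP only. The share of all features called higher moved in the same order, at 0%, 0.64%, 1.02% and 3.36%. The cause of these shifts was not tested. In 19Q versus GFP only 0 members were called under each setting. Over the 15 settings that gave a mean, no member's mean in 128Q over 19Q fell below 1.29. The rule largely set this in advance, since it asked for 1.2 or more on each of these arrays. Many of the settings also leave the mean unchanged, so nothing is read from it.

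Whether equal replicate numbers pair the samples of the comparisons is not settled here. Deviations of equal numbers correlated at 0.424, -0.128 and 0.332 over all probes. Without the 245 evenly spaced low probes, picked by their own values, they correlated at -0.044, -0.0003 and 0.005. Such correlations cannot show whether samples shared a culture. With the replicate block as a random effect 45 members were called, and as a fixed term, chosen after seeing the data, 25, for which the cause was not tested. These fits called 1.63% and 0.735% of all features higher. Each comparison has 3 arrays, and signal over background was not used here.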
